A study of Mus musculus with 6 samples.

Results

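The AP-1 factors described here are 10 genes, Fos, Fosb, Fosl1, Fosl2, Jun, Junb, Jund, Atf3, Maff and Mafk, out of 19938 genes that the platform annotation ties to a probe set with a single symbol. They were chosen by symbol, with earlier results of these data known. Each of the 10 is read by 1 probe set, the group of probes that measures a transcript. Their RNA was measured in NIH/3T3 fibroblasts, an immortalized mouse line, on Affymetrix Mouse Gene 1.0 ST arrays. The wild type group (3 arrays) stably expressed mouse RPB1 (the largest RNA polymerase II subunit) with an HA tag, and the 8KR group (3 arrays) stably expressed the same tagged protein with arginine in place of the lysine at the seventh position of its C-terminal domain repeats, which keeps the charge and prevents acetylation. The medium of both groups was DMEM that held 2 µg/ml of α-amanitin, which inhibits RNA polymerase II, besides bovine calf serum at 10%, and the labels name no added growth factor. The arrays of a group are labelled biological replicates, but the sources used here do not say whether they are separate stable populations, so the p-values measure the spread between these arrays, which may be technical.

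AP-1 is a dimer of basic leucine zipper (bZIP) proteins, which join through their zippers and grip DNA with their basic regions. Jun proteins pair with one another or with Fos proteins, whereas Fos proteins need a Jun partner, and the dimers bind the sequence TGANTCA, known as the TPA response element, or the related cyclic AMP response element TGACGTCA. In fibroblasts, Fos, Fosb, Jun and Junb are immediate-early genes that serum and growth factors switch on briefly, Fosl1 and Fosl2 follow later, Atf3 answers to stress, and the small Maf proteins Maff and Mafk lack an activation domain and pair with other bZIP proteins.

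Upstream sequence is shown because several of these genes are themselves bound by factors of the AP-1 and CREB families. Of the 10 genes, 9 have at least 1 promoter in the RefSeq table (build GRCm38.p6), with 11 start sites in all, and the 250 bases before each start were searched on both strands. The TGACG core of the cyclic AMP response element lay before 7 of the 11 starts, from 6 genes (Atf3, Fos, Fosb, Junb, Maff and Mafk), and before 17.8% of all 32851 starts in the table. TGACNTCA, which contains TGACG when N is G, lay before 3 of the 11 starts, from Jun and Maff, and before 7.49% of all starts. TGANTCA lay before none of the 11 and before 6.75% of all. Matches are descriptions of the letters in these windows and say nothing of binding. A match is given below for each of these genes, the one nearest to the start except in Maff, where the whole TGACGTCA is shown, with up to 30 bases on either side and with capitals marking the match. On the strand of each gene, the windows are chr12:85473794-85473858 (plus, Fos), chr7:19310071-19310135 (minus, Fosb), chr4:95052230-95052297 (minus, Jun), chr8:84978820-84978884 (minus, Junb), chr1:191183334-191183370 (minus, Atf3), chr15:79347461-79347519 (plus, Maff, the start with TGACGTCA) and chr5:139791465-139791529 (plus, Mafk).
Fos: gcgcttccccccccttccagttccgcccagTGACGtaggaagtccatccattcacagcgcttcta
Fosb: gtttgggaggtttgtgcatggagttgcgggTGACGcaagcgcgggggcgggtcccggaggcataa
Jun: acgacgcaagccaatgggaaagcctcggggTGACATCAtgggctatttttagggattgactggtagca
Junb: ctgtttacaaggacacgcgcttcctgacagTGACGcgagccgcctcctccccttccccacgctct
Atf3: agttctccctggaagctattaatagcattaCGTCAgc
Maff: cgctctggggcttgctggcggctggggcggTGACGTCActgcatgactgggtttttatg
Mafk: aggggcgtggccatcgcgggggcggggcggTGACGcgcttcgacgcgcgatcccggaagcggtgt
The match begins 66 bases before the start in Fos, 60 in Fosb, 45 in Jun, 106 in Junb, 7 in Atf3, 29 in Maff and 41 in Mafk. In Atf3 the element is read on the opposite strand, so the capitals show CGTCA.

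The table holds log2 intensities that the authors normalized. As in the methods, a probe set was kept if the mean of at least 1 group exceeded 3.0, and 8KR was compared with wild type by limma over the 28543 probe sets kept, with p-values adjusted by the Benjamini-Hochberg method. A gene was called at an adjusted p under 0.05. All 10 AP-1 factors passed the filter, with group means from 4.18 to 8.05. The group means of Fos (4.18 in wild type and 4.38 in 8KR) lay below the median of all probe sets on every array, 4.49 to 4.54. Those of Fosb (4.87 and 4.96) lay not far above it, so both genes were read at low intensity. Polr2a, which encodes RPB1, lay between 12.09 and 12.13 on the 6 arrays, and its probe set cannot tell the tagged proteins from the cell's own. Of 8 fibroblast markers, all were measured, with group means from 7.15 to 12.11. Of these 1, Col3a1, was called lower (log2 difference -0.52), beside 3.06% of all tested genes. At an unadjusted p under 0.05 from limma 3 of the 8 were lower and none higher, beside 11% of all tested genes that were lower. The groups did not overlap for 6 of the 8, beside 29.7% of all tested genes. No tested marker of leukocytes, endothelium or epithelium was called. At an unadjusted p under 0.05 from limma, 1 of the 3 tested endothelial markers was lower and none of the leukocyte or epithelial ones differed. It was Tek (3.29 in wild type and 3.03 in 8KR, log2 difference -0.26), near the 3.0 cutoff. Tek was also the only one of these markers whose groups did not overlap. Group means of the 5 leukocyte and macrophage markers ran from 2.54 to 5.40, with Ptprc and Adgre1 below 3.0 in both groups and Cd14 (5.40 and 5.35 in wild type and 8KR) and Cd68 (5.13 and 5.05) the highest. Those of the 4 endothelial markers ran from 2.70 to 4.14, with Kdr alone below 3.0 in both groups, and those of the 5 epithelial markers from 2.96 to 5.91, with Krt8 the highest. Levels of different probe sets are not comparable, so these means do not rank the markers against the AP-1 factors. Correlations between arrays were 0.982 to 0.984 within groups and 0.975 to 0.978 between them.

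None of the 10 AP-1 factors passed the test between 8KR and wild type cells, where 5.39% of the 17145 tested genes passed, 2.33% higher and 3.06% lower. The 3 with the smallest p, Fosl1, Jun and Atf3, all lay lower in 8KR cells, with log2 differences of -0.48, -0.34 and -0.42. At an unadjusted p under 0.05 from limma 3 of 10 remained, the same genes and all lower, beside 21.8% of all tested genes in either direction and 11% lower. The arrays of the 2 groups did not overlap for the same 3 genes, as for 29.7% of all tested genes. The 8KR mean lay below the wild type mean in 7 of the 10, and in 48.2% of all tested genes. The median log2 difference of the 10 was -0.10, and that of all tested genes was 0.01. These shares are close to those of all genes or rest on few members, and the list was described, not tested. In whole cultures such as these, fewer cells that express a gene and less of its RNA in each cell cannot be told apart.

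**Figure D1:**
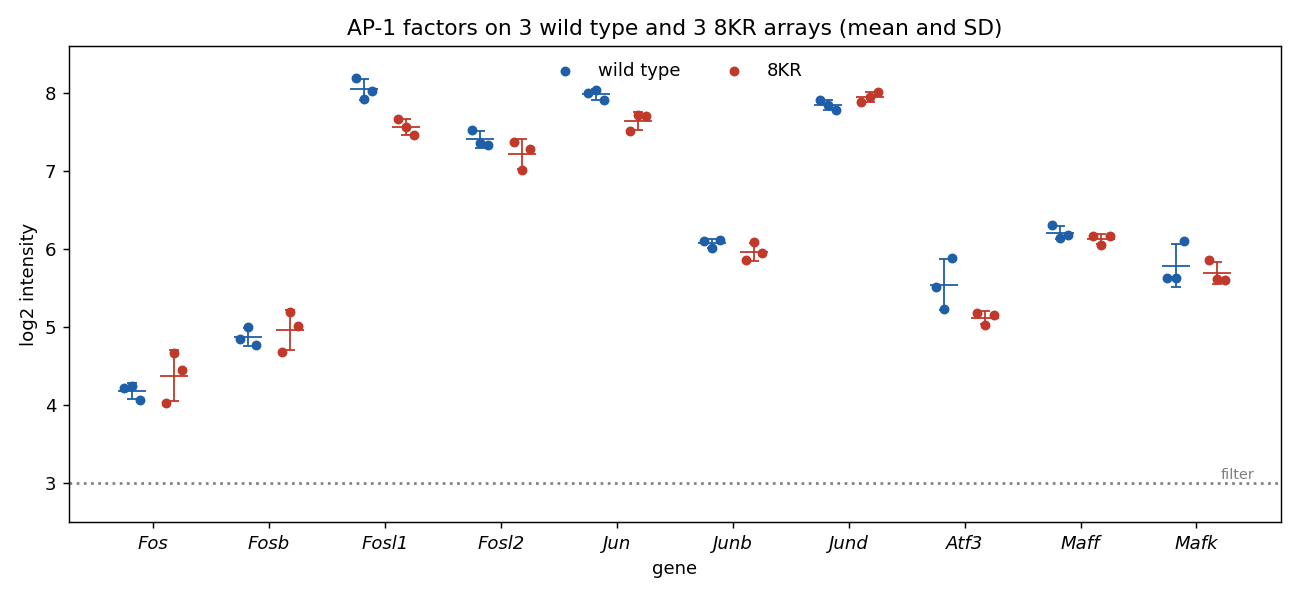
Log2 intensity (vertical axis) of the 10 AP-1 factors (horizontal axis) on 3 wild type arrays (blue) and 3 8KR arrays (red). Points are single arrays, horizontal lines are means and error bars show the SD. The arrays of the 2 groups do not overlap for Fosl1, Jun and Atf3, and the dotted line marks the filter at 3.0.

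Fosl1 encodes Fra-1, a Fos family protein without the strong activation domain of Fos (probe set 10460585, Entrez gene 14283). Its log2 intensity was 8.19, 7.92 and 8.02 in wild type cells and 7.67, 7.56 and 7.46 in 8KR cells. All 3 8KR arrays lay below the lowest wild type array. The means were 8.05 ± 0.13 and 7.56 ± 0.11 (SD, n = 3 each), which is 1.40-fold lower in 8KR cells (log2 difference -0.48, standard error 0.10, 95% interval -0.73 to -0.23). The adjusted p was 0.0618 from limma, just above the threshold, and the difference was larger in size than that of 92.2% of tested genes. Fosl1 passed under 3 alternatives, with an adjusted p of 0.0248 when dim probe sets below 5.0 were left out, 0.0274 with an intensity trend in the variance and 0.0254 over probe sets with a single symbol, and over all 16 alternatives its adjusted p ran from 0.0248 to 0.164. No promoter was matched for Fosl1.

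Jun encodes c-Jun, one of the Jun proteins that can serve as the partner Fos proteins need to bind DNA (probe set 10514466, Entrez gene 16476). It read 8.00, 8.03 and 7.91 in wild type cells and 7.51, 7.71 and 7.70 in 8KR cells, on the log2 scale. The groups did not overlap, and 8KR replicate 1 lay lowest. The means were 7.98 ± 0.06 and 7.64 ± 0.11 (SD, n = 3 each), or 1.26-fold lower in 8KR (log2 difference -0.34, standard error 0.09, 95% interval -0.55 to -0.12; adjusted p = 0.102 from limma). With the filter at 5.0 the adjusted p of Jun was 0.0434, and over the 16 alternatives it ran from 0.0434 to 0.233.

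Junb, which encodes a Jun protein that activates many AP-1 sites more weakly than c-Jun, read 6.10, 6.01 and 6.11 in wild type cells and 5.86, 6.08 and 5.95 in 8KR cells, so the groups overlapped. Its log2 difference was -0.11 (95% interval -0.32 to 0.10), and it was -0.058 without 8KR replicate 1 and -0.17 without 8KR replicate 2. Jund, the Jun family member that is expressed steadily rather than in bursts, read 7.91, 7.85 and 7.79 in wild type cells and 7.88, 7.94 and 8.01 in 8KR cells. The groups overlapped, and the log2 difference was 0.10 (95% interval -0.09 to 0.28), an interval that allows at most a 1.22-fold rise and a fall to 0.937 of the wild type level. The adjusted p was 0.561 for Junb and 0.566 for Jund, from limma.

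Fos, the founding immediate-early gene of the family (probe set 10397346), read 4.22, 4.25 and 4.06 in wild type cells and 4.02, 4.66 and 4.45 in 8KR cells. The 8KR arrays spanned the whole wild type range, with an SD of 0.33 against 0.10. Its log2 difference was 0.20 (95% interval -0.22 to 0.62; adjusted p = 0.585 from limma), so the data allow anything from 0.860 to 1.54 times the wild type level. Without 8KR replicate 1 the difference of Fos was 0.38 (unadjusted p = 0.0210 and adjusted p = 0.199, from limma), and without 8KR replicate 2 it was 0.061. Fosb, its close relative, read 4.84, 5.0 and 4.77 in wild type cells and 4.68, 5.19 and 5.01 in 8KR cells. It showed the same wide 8KR spread, with a log2 difference of 0.09 (95% interval -0.27 to 0.45; adjusted p = 0.796 from limma). The sign of the Fosb value turned, to -0.025, without 8KR replicate 2, and with each array left out in turn the value ran from -0.025 to 0.23. Induction of these genes by serum or EGF was not measured on these arrays.

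Fosl2, which encodes the Fos family protein Fra-2, read 7.53, 7.36 and 7.33 in wild type cells and 7.37, 7.01 and 7.28 in 8KR cells. The groups overlapped through 8KR replicate 1, and the log2 difference was -0.18 (95% interval -0.48 to 0.11; adjusted p = 0.470 from limma). It was -0.078 without 8KR replicate 2 and -0.12 without wild type replicate 1.

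Atf3, a stress-induced bZIP factor that pairs with Jun proteins (probe set 10361091, Entrez gene 11910), read 5.51, 5.23 and 5.89 in wild type cells and 5.18, 5.02 and 5.16 in 8KR cells. The lowest wild type array lay just above the highest 8KR array, and wild type replicate 3 lay far above both. The means were 5.54 ± 0.33 and 5.12 ± 0.09 (SD, n = 3 each; log2 difference -0.42, standard error 0.17, 95% interval -0.84 to -0.0029; adjusted p = 0.250 from limma). The unadjusted p of Atf3, 0.0489 from limma, stayed under 0.05 without wild type replicate 2 and exceeded it without any other single array. Without wild type replicate 3 the difference of Atf3 was -0.25.

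Of the small Maf genes, Maff read 6.30, 6.14 and 6.17 in wild type cells and 6.17, 6.05 and 6.17 in 8KR cells, with a log2 difference of -0.08 (95% interval -0.28 to 0.12). The difference of Maff was -0.038 without 8KR replicate 2 and -0.029 without wild type replicate 1. Mafk read 5.63, 5.63 and 6.10 in wild type cells and 5.85, 5.61 and 5.61 in 8KR cells, with a log2 difference of -0.10 (95% interval -0.48 to 0.29). Both overlapped between groups, with adjusted p of 0.677 and 0.795 from limma. The high wild type reading of Mafk came from replicate 3, the array that was also highest for Atf3, and without it the difference of Mafk was 0.061, whereas without each other array it ran from -0.18 to -0.055.

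**Figure D2:**
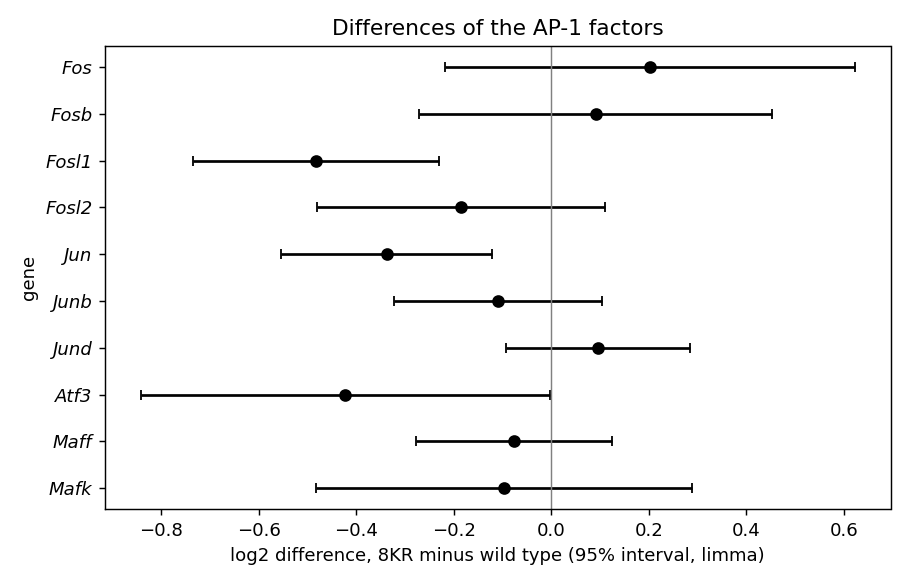
Log2 difference of each AP-1 factor, 8KR minus wild type (horizontal axis), with its 95% interval from limma, genes on the vertical axis. The intervals of Fosl1 (-0.73 to -0.23) and Jun (-0.55 to -0.12) lie below 0 and that of Atf3 ends at -0.0029, before any adjustment for the number of probe sets tested.

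The spread among replicates differed between members. The pooled SD within groups was 0.24 for Fos and 0.24 for Atf3, larger than that of 88% and 87.9% of tested genes, and 0.22 for Mafk and 0.20 for Fosb. It was 0.06 for Jund, larger than that of 9.27% of tested genes, and 0.09 for both Jun and Junb. The order of the arrays was also examined, a point picked after the values were seen. Fos and Fosb ranked the 6 arrays identically, from 8KR replicates 2 and 3 at the top, through wild type replicates 2, 1 and 3, to 8KR replicate 1 at the bottom, an order held by 0.128% of all tested genes. Jun and Junb ranked the 6 arrays differently from these and from each other. Among the wild type arrays alone, Jun held the order of Fos and Fosb, as did 16.5% of all tested genes, and Junb did not. Among the 8KR arrays alone, Fos, Fosb, Jun and Junb all read highest in replicate 2, then 3, then 1, an order that 17.3% of all tested genes held. Of the Egr and Nr4a factors, Egr1 and Egr3 held it, and Egr2, Egr4, Nr4a1, Nr4a2 and Nr4a3 did not. Fosl1, Fosl2, Jund, Atf3, Maff and Mafk did not follow that order. Averaged over the 10 genes, deviations of single arrays from their group mean ran from -0.05 to 0.03, and no array was the highest of its group for more than 4 members. Wild type replicates 2 and 3 and 8KR replicate 1 were each the lowest of their group for 5 members, and wild type replicate 1 for none.

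**Figure D3:**
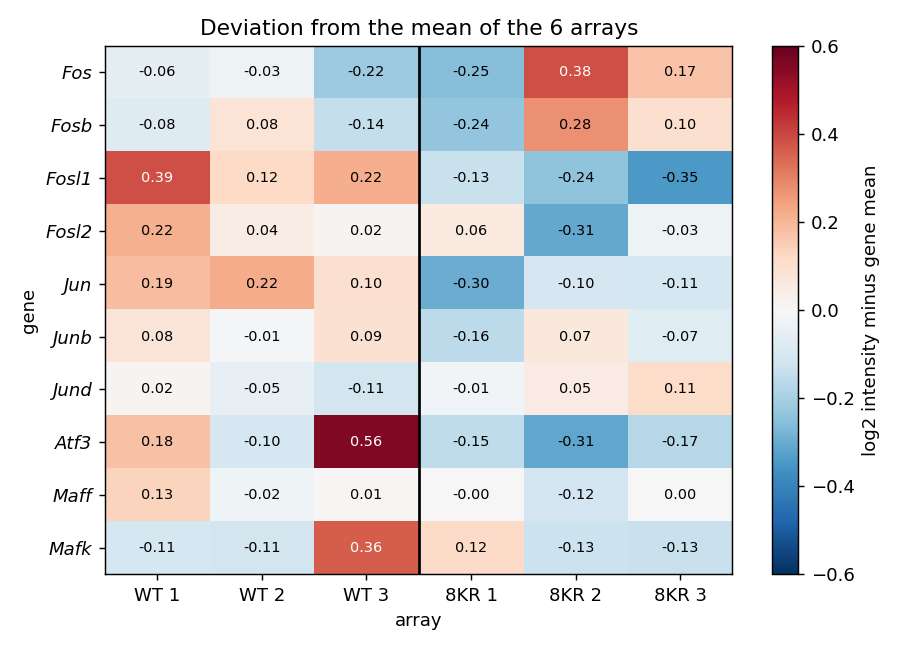
Log2 intensity of each AP-1 factor (vertical axis) on each array (horizontal axis) minus the mean of that gene over the 6 arrays, with the value printed in each cell. Fos and Fosb share a pattern with a high reading on 8KR replicate 2 (0.38 and 0.28) and a low one on 8KR replicate 1 (-0.25 and -0.24), and Atf3 and Mafk are highest on wild type replicate 3 (0.56 and 0.36).

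Other bZIP genes can pair with AP-1 proteins or compete for related sites. This list and the lists that follow were chosen with earlier results of these data known, so their counts of calls are descriptions. Of 25 listed, 24 were matched and 23 tested, of which none rose, 1 fell and 22 did not pass, beside 5.39% called among all tested genes, with a median log2 difference of 0.05. The gene that fell was Nfe2l2, which encodes NRF2, the activator of antioxidant genes that binds DNA with a small Maf partner. It read 9.56, 9.51 and 9.56 in wild type cells and 9.04, 9.15 and 9.20 in 8KR cells (log2 difference -0.41, adjusted p = 0.0432 from limma). The groups did not overlap for 9 of the 23 tested, Nfe2l2 among them, beside 29.7% of all tested genes. The call of Nfe2l2 was lost without filtering, under the replicate block and without any 1 array. Next by adjusted p, without passing, were Creb1, the cyclic AMP-responsive factor (0.36, adjusted p = 0.0963), Atf5 (0.28, adjusted p = 0.0989) and Atf7, a Jun partner (-0.38, adjusted p = 0.151).

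Of 32 listed regulators of AP-1, which act through transcription of the Fos and Jun genes, kinase signaling, or decay of the RNA and protein, 26 were matched and tested. Among them 1 rose, 2 fell and 23 did not pass, beside 2.33% of all tested genes that rose and 3.06% that fell, and the median log2 difference was 0.11. Mrtfa, an actin-controlled coactivator of SRF, fell by 0.58 on the log2 scale, from 7.31, 7.05 and 7.22 to 6.64, 6.62 and 6.60 (adjusted p = 0.0264 from limma). Map2k1, which encodes the ERK kinase MEK1, fell by 0.53, from 7.39, 7.58 and 7.54 to 7.03, 6.95 and 6.92 (adjusted p = 0.0284). Zfp36, whose protein tristetraprolin speeds decay of AU-rich messenger RNAs, Fos among them, rose by 0.55 on the log2 scale, from 5.82, 5.78 and 5.72 to 6.37, 6.37 and 6.22 (adjusted p = 0.0228). The 2 groups did not overlap for 13 of the 26, these among them, beside 29.7% of all tested genes. Srf, the serum response factor that drives Fos transcription, read 0.55 higher in 8KR cells without passing (adjusted p = 0.0548). With 1 array left out, these regulators had no call, or 1 (Mrtfa) without wild type replicate 2, and the replicate block left none.

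Genes with textbook AP-1 sites or named for induction by Fos changed in both directions. Of 29 listed, 25 were matched and tested, and 2 rose, 2 fell and 21 did not pass, beside 5.39% of all tested genes. Because the list was chosen with earlier results known, that count is not a test of it. The median log2 difference was 0.00. Ccl2, a monocyte chemokine, read 9.46, 9.41 and 9.26 in wild type cells and 7.58, 7.66 and 7.30 in 8KR cells, a 3.64-fold fall (adjusted p = 0.00228 from limma). Vegfd, a vascular growth factor once named c-fos-induced growth factor, read 9.18, 9.21 and 9.04 in wild type cells and 7.83, 7.39 and 7.54 in 8KR cells, a 2.95-fold fall (adjusted p = 0.00462). Vegfa, the main angiogenic factor of its family, rose 1.68-fold, from 7.15, 7.11 and 7.01 to 8.00, 7.87 and 7.64 (adjusted p = 0.0241). Plau, the urokinase protease, rose 1.54-fold, from 7.19, 7.15 and 7.23 to 7.62, 7.85 and 7.95 (adjusted p = 0.0326). Ccl2 and Vegfd were called without each single array, whereas Vegfa was called only without 8KR replicate 3 and Plau only without 8KR replicate 1. The replicate block left Ccl2 alone.

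**Figure D4:**
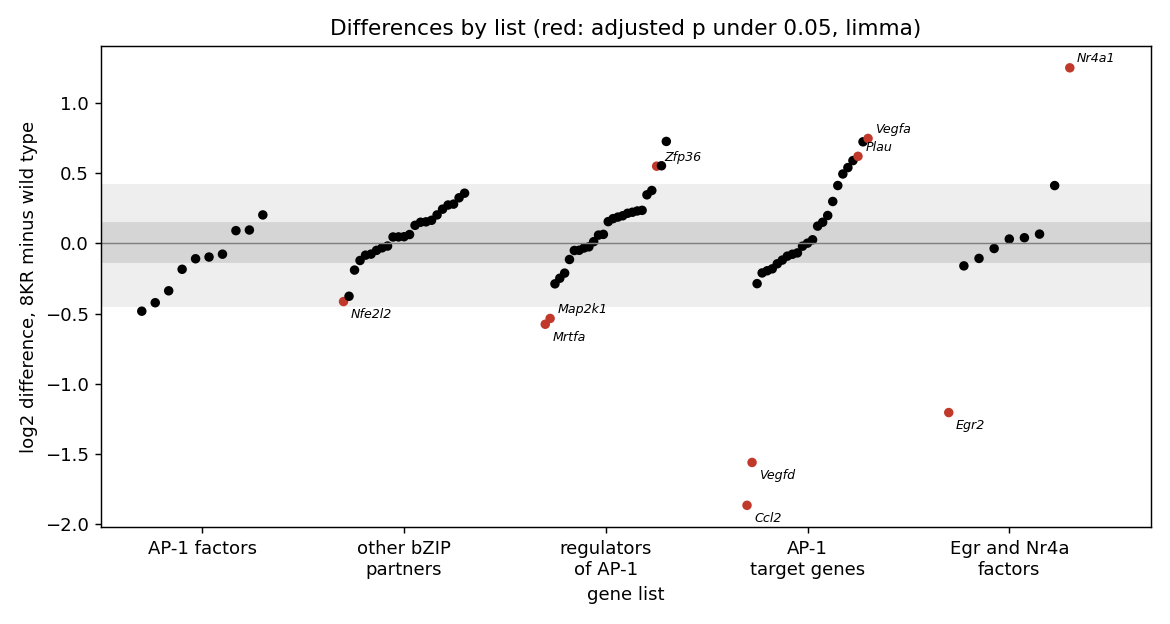
Log2 difference, 8KR minus wild type (vertical axis), of every tested gene in 5 lists (horizontal axis), ordered by size within a list, with called genes in red. Grey bands hold the middle 50% (-0.14 to 0.14) and 90% (-0.45 to 0.42) of all tested genes, and the AP-1 factors run from -0.48 to 0.20, with none called.

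Egr and Nr4a genes, the other immediate-early transcription factors, were compared with AP-1 because they answer to the same signals. All 9 listed genes, which include the corepressors Nab1 and Nab2, were tested. Nr4a1, an orphan nuclear receptor, rose from 5.82, 5.96 and 6.02 to 7.16, 7.23 and 7.15 (log2 difference 1.25, adjusted p = 0.00246 from limma). Egr2, a zinc finger factor, fell by 1.20, from 6.28, 5.85 and 6.24 to 5.02, 4.98 and 4.75 (adjusted p = 0.0133). Thus 2 of 9 passed, beside 5.39% of all tested genes, in a list chosen with earlier results of these data known. That count is a description, not a test. The other 7 did not pass, among them Nr4a2 (0.41, adjusted p = 0.105 from limma), Nab2 (-0.11, adjusted p = 0.528) and Egr1, named here for its array order (0.04, adjusted p = 0.879). The largest difference among the AP-1 factors was -0.48, in Fosl1, and whether it differs from those of Nr4a1 and Egr2 was not tested. Without single arrays, Nr4a1 was always called and Egr2 only without wild type replicate 2. The replicate block left neither.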

How the data were processed

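RNA of 6 samples was measured on Affymetrix Mouse Gene 1.0 ST arrays. The deposited log2 intensities, 1 per probe set and array, were normalized and log2 scaled by the authors. Affymetrix Power Tools 1.12.0 appears in the submitters' processing notes. The normalization and build are not given in the sources read. The table, of 35557 probe sets, was not filtered.

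Groups came from the sample titles. Probe sets with a group mean above 3.0 were fitted in R 4.3.3 with lmFit and eBayes of limma 3.58.1 (8KR minus wild type, no covariates), adjusted by Benjamini-Hochberg over all 28543 tested; intervals cover 95%. The fit was tested on simulated data. Symbols came from the platform annotation (21789 probe sets with 1 symbol, 1621 with several, 12147 with none) and were updated through Entrez identifiers with RefSeq (GRCm38.p6). The brightest probe set on average stood for a gene. Arrays give no read depth, and their number limits the precision.

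The members and lists were chosen with earlier results of these data known. Named are all members and, in each list, all called genes and the smallest adjusted p, up to 4. Same-numbered arrays did not deviate together (correlations -0.01, 0.01 and -0.00), so the replicate number was used as a block only as an alternative. Other alternatives changed the filter, the normalization, the variance model, the arrays or the probe sets. Figures were drawn with matplotlib 3.10.9. Listed genes that could not be matched were not analysed here.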

Additional observations from a re-analysis of the deposited data

How the results depend on the processing

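Of the 158 values of single AP-1 factors under 16 alternatives, 152 kept their direction and their side of the threshold, 4 passed the threshold (Fosl1 under 3 alternatives and Jun under 1) and 2 changed sign, Mafk at 0.061 without wild type replicate 3 and Fosb at -0.025 without 8KR replicate 2. With 1 array left out, the difference of Mafk ran from -0.18 to 0.061 and that of Fosb from -0.025 to 0.23. The number of AP-1 factors called was 2 with the filter at 5.0, 1 with an intensity trend, 1 over probe sets with a single symbol and 0 otherwise. Fos and Fosb, with group means under 5.0, were not tested with that filter. Factors at an unadjusted p under 0.05 numbered 2 to 3, not always the same ones. Without 8KR replicate 1, Fos was among them, higher in 8KR cells (log2 difference 0.38, unadjusted p = 0.0210 from limma). Atf3 was not (unadjusted p = 0.0809 from limma). The filter at 5.0 left 15801 probe sets to adjust over and the single symbol 18679, and the unadjusted p from limma changed as well. For Fosl1 it went from 0.00328 to 0.00221 with the filter and to 0.00157 over single symbols. Why calls changed under these 3 alternatives was not tested. The share of all tested genes called was computed for the main fit only. Counts of calls under the alternatives, here and below, therefore have no such share beside them and are descriptions. Calls among other bZIP partners were 3 with the filter at 5.0, 2 with the trend and 0 without filtering. Calls among regulators were 7 with the filter, 7 with the trend, 5 with quantile normalization and 6 over single symbols. Calls among AP-1 target genes were 7 with the filter and 8 with the trend, and the ordinary test per probe set left 1 of the Egr and Nr4a genes. With the replicate number as a block, partners, regulators and Egr and Nr4a genes had 0 calls each and target genes had 1, while the AP-1 factors had 0 as before. Over all tested probe sets same-numbered arrays did not deviate together, and this fit has fewer residual degrees of freedom. Its standard error was smaller than in the main fit for Fos, Fosb, Fosl1, Fosl2 and Atf3 (Atf3 0.135 against 0.172). It was larger for Jun, Junb, Jund, Maff and Mafk (Jun 0.097 against 0.089). Why calls were lost under the block was not tested. Leaving out 1 array gave 0 calls among AP-1 factors, 0 among partners, 0 to 1 among regulators, 2 to 3 among targets and 1 to 2 among Egr and Nr4a genes. The spread between 3 arrays a group limits what can be called: the intervals of the AP-1 factors allow differences of up to 0.84 in size on the log2 scale.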

Other observations

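The genes whose 6 array values followed Fosl1 most closely were Tgfbr3, a co-receptor of TGF-β (Pearson r = 0.9997), Vsnl1 (0.996) and Aebp1 (0.996), with log2 differences of -0.63, -0.43 and -0.34. These values describe 6 arrays in 2 groups, and much of any such likeness is the difference between the groups. Egr2 ranked the 6 arrays in the same order as Fosl1, as did 0.449% of all tested genes.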
